A study of Homo sapiens with 8 samples.

Results

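This account describes 43 genes that encode the proteins that mark replication origins, open the DNA and copy it, as measured on 8 Affymetrix arrays of a breast cancer line with and without the drug COH29. The genes were chosen by symbol with no threshold on a measured value, from a list drawn up with earlier results of these data known. All 43 were found among the 18417 genes tested, and each was read by 1 probe set that the platform annotation pairs with that gene alone. They comprised the 6 subunits of the origin recognition complex (ORC), the licensing factors CDC6, CDT1 and GMNN, the 6 MCM helicase subunits, MCM10 and CDC45, the 4 GINS subunits, 9 DNA polymerase and primase subunits, the clamp PCNA, 5 subunits of its loader RFC, 3 subunits of the single-strand binding complex RPA, 2 subunits of the chromatin assembly factor CAF-1, and the fork proteins DSCC1 and WDHD1.

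The cells were HCC1937, a breast cancer line with a truncated BRCA1 that the labels call BRCA1 deficient, and HCC1937+BRCA1, its derivative with an exogenous wild-type BRCA1. The 4 groups, of 2 arrays each, were HCC1937 with 10 µM COH29 for 24 h, HCC1937 control, HCC1937+BRCA1 with 10 µM COH29 for 24 h, and HCC1937+BRCA1 control. All cells grew in RPMI medium with serum. The labels name no vehicle and no hours for the controls, and neither the promoter that drives the exogenous BRCA1 nor whether that line is a clone. Nor do they state that a group's arrays were separate cultures. The p-values therefore reflect the spread between these samples alone, and that spread may be technical.

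COH29 inhibits ribonucleotide reductase, the enzyme that supplies deoxynucleotides to the replication fork. In each cell cycle ORC binds origins, CDC6 and CDT1 load the MCM helicase on them, and geminin (GMNN) blocks CDT1 once S phase has begun. CDC45 and GINS then join MCM to form the active helicase, polymerase alpha with its primase starts each strand, RFC loads the ring PCNA, and polymerases delta and epsilon extend the DNA. Many of these genes are transcribed in waves through the cell cycle, with E2F factors among their known regulators.

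The deposited values are log2 intensities, and probe sets of different genes differ in how brightly they report. Genes are therefore set against each other only by percentile of mean level, a coarse placing, and every difference is between arrays for 1 gene. Arrays of a group correlated across all genes with r of 0.996 to 0.997, above the 0.979 to 0.987 that was the highest r of any array with another group. The members lay between percentile 58.5 (RPA2) and 99.0 (RFC4) of mean level. The SD of a member's 2 arrays had a median of 0.06 over members and groups, with the highest, 0.30, in ORC4. The epithelial markers EPCAM, CDH1, KRT8, KRT18 and KRT19, 5 of 5 listed, lay at percentiles 52.5 to 99.8, and 3 measured basal mammary markers at 65.7 to 87.7. The defining leukocyte gene PTPRC lay at percentile 3.0, 4 measured leukocyte markers at 3.0 to 57.5, fibroblast markers at 0.6 to 50.5 and endothelial markers at 12.3 to 49.0. Some of these markers moved with the groups. The leukocyte marker CD14 read 9.38 and 9.57 in HCC1937 with COH29, against 10.47 and 10.74 in its control (-1.13 ± 0.12, adjusted p = 0.000295), and was higher in HCC1937 than in HCC1937+BRCA1 by 3.77 in controls and by 2.76 with COH29. The endothelial genes PECAM1 and CDH5 fell with COH29 in both lines, with log2 changes of -1.95 and -1.48 for PECAM1 and -1.28 and -0.50 for CDH5 in HCC1937 and HCC1937+BRCA1. Over the lists, COH29 in HCC1937 called 0 higher and 1 lower of the 4 leukocyte genes, 0 and 2 of the 5 endothelial genes and 0 of the 5 fibroblast genes. In HCC1937+BRCA1 it called 0 leukocyte genes, 1 endothelial gene higher and 2 lower, and 1 fibroblast gene higher. The calls of CD14, PECAM1 and CDH5 held under every setting tried, and those higher in HCC1937+BRCA1, TEK and DCN, each ended on omission of control replicate 1 or of any COH29 array in that line (adjusted p up to 0.23 for TEK and 0.185 for DCN over the settings). The summed intensity of the leukocyte list, as log2 of the sum, was 9.73 to 9.93 in HCC1937 with COH29, against 10.66 to 10.89 in its control, and 7.93 to 7.99 in HCC1937+BRCA1 with COH29, against 7.84 to 7.91 in its control. That of the endothelial list was 8.91 to 8.95 in HCC1937 with COH29, against 10.18 to 10.27 in its control, and 8.50 to 8.57 in HCC1937+BRCA1 with COH29, against 9.13 to 9.24 in its control. For the fibroblast list it was 8.84 to 9.10 in HCC1937 with COH29, against 8.74 to 8.78 in its control, and 9.02 to 9.04 in HCC1937+BRCA1 with COH29, against 8.77 to 8.84 in its control. The part of these markers in the results on the replication genes was not tested. The BRCA1 probe set gave 10.45 and 10.64 in HCC1937 control, against 10.50 and 10.43 in HCC1937+BRCA1 control. No source used here says how well this probe set reads the added gene, so it cannot serve as a check on the lines.

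With COH29 the replication genes did not move as one block. In HCC1937, 6 of the 43 rose (ORC1, ORC6, CDC6, GINS4, RFC5 and RPA3) and 6 fell (ORC2, ORC3, MCM3, GINS1, POLD3 and POLE2), by a limma fit across all genes with a Benjamini-Hochberg adjusted p under 0.05, which is what a call means throughout. These 12 calls are 27.9% of the members, beside 22.7% of all 18417 genes called in that comparison, 10.2% higher and 12.5% lower. In HCC1937+BRCA1, 3 rose (ORC6, CDC6 and RFC5) and 16 fell (ORC2, ORC3, MCM2, MCM3, GINS1, GINS2, GINS3, POLA1, PRIM1, PRIM2, POLD1, POLD3, POLE2, RFC3, RFC4 and WDHD1). There 44.2% of the members were called, beside 33.6% of all genes. The calls lower were 37.2% of the members against 20.1% of all genes, and the calls higher 6.98% against 13.6%. These shares of all genes include genes at low levels. Among the 12892 genes left without those below the 30th percentile of mean level, 1988 were called higher and 2626 lower in HCC1937. Of the 43 members, 6 were then higher and 10 lower. In HCC1937+BRCA1, 2506 genes and 3 members were higher, and 3923 genes and 19 members lower. In each line the share of members called was then close to that of the genes kept. The median log2 change was -0.02 for the members in HCC1937 and -0.20 in HCC1937+BRCA1, beside 0.04 over all genes in each line. Among the 7653 genes at or above the mean level of the lowest member, the median was -0.03 in HCC1937 and -0.11 in HCC1937+BRCA1. Other scalings moved the members' median: with arrays shifted to one median it was 0.01 in HCC1937 and -0.13 in HCC1937+BRCA1, against 0.07 and 0.11 over all genes, and after cyclic loess 0.01 and -0.10, against 0.00 for all genes in each line. In bulk RNA, fewer cells in a cell cycle phase and less RNA per cell cannot be told apart.

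The COH29 comparisons of the lines share no array, but the fit gives them a common estimate of each gene's spread. Called in both were 9 members, each in 1 direction. The members higher in both were 6.98% of the 43 and those lower in both 14%, beside 7.22% and 10.8% of all genes tested, of which 0.119% were called in opposite directions. The 3 that rose in both were ORC6, CDC6 and RFC5, which are 3 of the 6 calls higher in HCC1937 and 3 of 3 in HCC1937+BRCA1. Over all genes, those higher in both were 1329 of 1872 calls higher in HCC1937 and 1329 of 2498 in HCC1937+BRCA1. The 6 that fell in both were ORC2, ORC3, MCM3, GINS1, POLD3 and POLE2, which are 6 of 6 calls lower in HCC1937 and 6 of 16 in HCC1937+BRCA1. Over all genes, those lower in both were 1986 of 2307 calls lower in HCC1937 and 1986 of 3697 in HCC1937+BRCA1. A further 21 members (48.8%, beside 61.8% of all genes) were called in neither line, and 0 were called in opposite directions. A called change over 2-fold was seen in 1 member in HCC1937 (POLE2) and in 3 in HCC1937+BRCA1 (POLE2, GINS1 and POLD3). The share of all genes over 2-fold is not given here.

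Some calls did not survive the loss of 1 array. In HCC1937 the calls of ORC1, ORC2, MCM3, GINS4 and RPA3 ended without at least 1 array: 5 of the 12 ended without COH29 replicate 1 (adjusted p 0.0506 to 0.199) or control replicate 2 (0.0503 to 0.241), and 3 without COH29 replicate 2 (0.100 to 0.136) or control replicate 1 (0.0949 to 0.137). The members higher then numbered 3 without either COH29 array or control replicate 2, against 6 with all arrays. MCM3 also ended without any single HCC1937+BRCA1 array (adjusted p 0.0522 to 0.0551), and ORC1 without either HCC1937+BRCA1 control array (0.0503). In HCC1937+BRCA1 the calls of MCM2, GINS3, POLA1, POLD1, RFC4 and RFC5 ended without at least 1 of its own arrays: 4 without COH29 replicate 1 (0.0517 to 0.151), 4 without COH29 replicate 2 (0.0739 to 0.151), 5 without control replicate 1 (0.0584 to 0.161) and 3 without control replicate 2 (0.0772 to 0.136). ORC6, CDC6, ORC3, GINS1, POLD3 and POLE2 were called in both lines without any 1 array. With only the 4 arrays of a comparison in the limma fit, ORC1 and MCM3 were no longer called in HCC1937 (adjusted p 0.0708 to 0.0722). WDHD1 was then called lower there (0.0395). In HCC1937+BRCA1 that fit ended the calls of POLA1 and POLD1 (0.0536 to 0.0544).

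**Figure D1:**
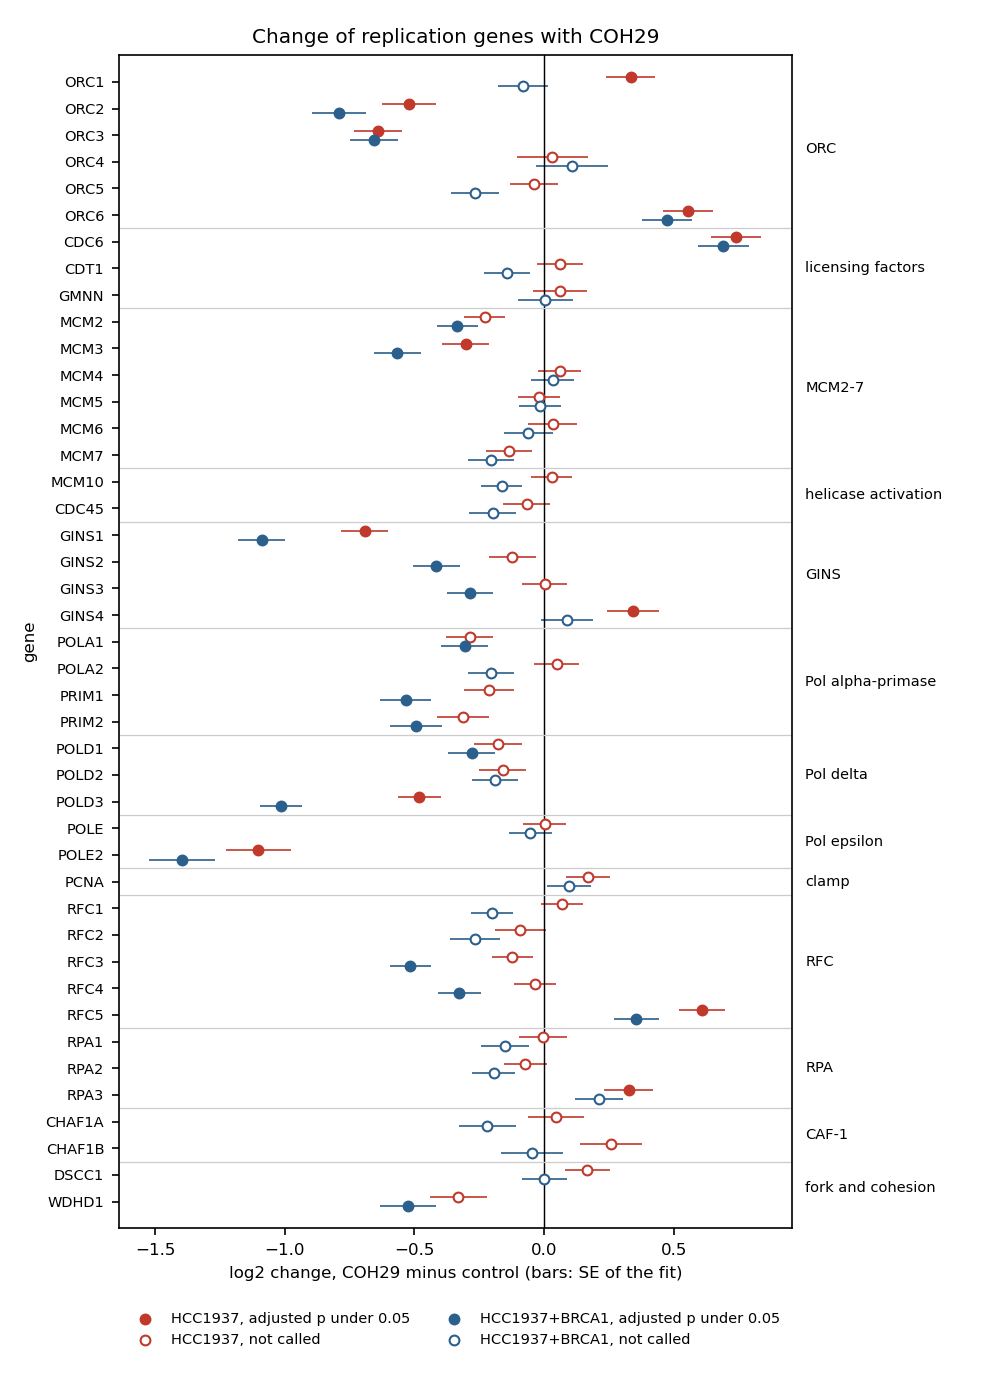
Change of each of the 43 genes with COH29, as log2 intensity with COH29 minus control (x axis, bars are the SE of the fit), in HCC1937 (red) and HCC1937+BRCA1 (blue), with genes down the page grouped by complex. Filled points passed an adjusted p of 0.05. POLE2 lies farthest left in both lines, at -1.10 and -1.40, and CDC6 farthest right, at 0.74 and 0.69.

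Promoters are printed for the members called the same way in both lines, to show what stands before genes that moved together. Of these 9 members 8 had an entry in the RefSeq promoter table (GRCh38.p14), and 36 of the 43 members did. MCM4, MCM5, GINS4, POLD3, RPA2, RPA3 and DSCC1 had none. Each sequence is the 250 bases before the annotated start, 5′ to 3′ on the strand of the gene. Capitals mark the letters CCAAT or ATTGG and the E2F-type letters TTTCCCGC, TTTGGCGC, TTTCGCGC or TTTGCCGC on either strand. The first 5 fell with COH29 and the last 3 rose.
POLE2, chr14:49688215-49688464 (- strand): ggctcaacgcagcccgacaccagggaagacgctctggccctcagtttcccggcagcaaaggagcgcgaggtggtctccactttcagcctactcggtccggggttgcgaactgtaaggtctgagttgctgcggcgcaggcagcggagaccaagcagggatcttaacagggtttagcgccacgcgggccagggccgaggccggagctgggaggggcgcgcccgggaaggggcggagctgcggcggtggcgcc
ORC2, chr2:200963661-200963910 (- strand): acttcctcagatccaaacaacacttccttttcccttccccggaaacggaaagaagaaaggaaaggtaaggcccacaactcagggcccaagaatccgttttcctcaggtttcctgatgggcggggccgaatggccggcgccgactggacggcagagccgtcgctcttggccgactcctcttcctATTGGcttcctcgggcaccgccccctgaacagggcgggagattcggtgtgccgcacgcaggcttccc
GINS1, chr20:25407423-25407672 (+ strand): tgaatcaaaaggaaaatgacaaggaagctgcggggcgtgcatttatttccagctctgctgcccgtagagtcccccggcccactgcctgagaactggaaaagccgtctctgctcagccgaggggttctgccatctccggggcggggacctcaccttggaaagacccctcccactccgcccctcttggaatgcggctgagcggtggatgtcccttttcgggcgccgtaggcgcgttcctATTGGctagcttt
ORC3, chr6:87589885-87590134 (+ strand): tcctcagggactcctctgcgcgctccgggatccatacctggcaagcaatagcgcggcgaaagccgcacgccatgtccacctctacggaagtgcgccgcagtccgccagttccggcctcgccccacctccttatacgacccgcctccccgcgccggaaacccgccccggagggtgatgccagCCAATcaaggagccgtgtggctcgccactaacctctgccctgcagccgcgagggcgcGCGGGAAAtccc
MCM3, chr6:52284743-52284992 (- strand): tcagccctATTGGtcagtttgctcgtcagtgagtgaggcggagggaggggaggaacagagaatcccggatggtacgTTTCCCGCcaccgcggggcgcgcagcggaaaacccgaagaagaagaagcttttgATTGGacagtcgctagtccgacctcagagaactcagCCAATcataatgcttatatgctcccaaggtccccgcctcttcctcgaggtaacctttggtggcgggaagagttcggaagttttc
CDC6, chr17:40287629-40287878 (+ strand): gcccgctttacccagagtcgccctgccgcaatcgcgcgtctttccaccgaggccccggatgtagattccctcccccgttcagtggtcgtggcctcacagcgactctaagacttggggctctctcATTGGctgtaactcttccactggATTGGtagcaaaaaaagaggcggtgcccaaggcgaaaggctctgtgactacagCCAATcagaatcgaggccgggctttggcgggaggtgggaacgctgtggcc
ORC6, chr16:46689409-46689658 (+ strand): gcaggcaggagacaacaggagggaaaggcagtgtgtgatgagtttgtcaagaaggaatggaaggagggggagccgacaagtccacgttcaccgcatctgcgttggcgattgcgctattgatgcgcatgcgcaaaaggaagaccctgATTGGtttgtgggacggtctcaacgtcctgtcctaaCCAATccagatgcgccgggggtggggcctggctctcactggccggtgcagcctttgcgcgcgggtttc
RFC5, chr12:118016453-118016702 (+ strand): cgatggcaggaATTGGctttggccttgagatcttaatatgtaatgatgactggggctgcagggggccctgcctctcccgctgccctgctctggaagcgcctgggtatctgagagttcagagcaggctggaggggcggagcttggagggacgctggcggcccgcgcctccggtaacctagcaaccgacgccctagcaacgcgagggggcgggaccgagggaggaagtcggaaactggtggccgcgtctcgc

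Among these, ORC3 and MCM3 hold an E2F-type match, with its first base 12 bases before the start in ORC3 and 174 bases before it in MCM3. Over the 36 member promoters, 11 (30.6%) held such a match, beside 761 of 27305 (2.79%) of all promoters of this length in the table. They were ORC3, CDT1, MCM3, MCM6, MCM7, GINS2, POLA1, POLA2, POLE, PCNA and RFC3. A match was found in 2 of the 5 promoters of genes that fell in both lines, in 0 of the 3 of genes that rose in both and in 6 of the 17 of genes called in neither. CCAAT, on either strand, was in 21 of the 36 (58.3%), beside 33.0% of all promoters, in 4 of the 5 of genes that fell in both lines and in 3 of the 3 of genes that rose. POLE2, which fell most, has neither. The letters TTTGAA or TTCAAA, the core of the cell cycle homology region, were in 0 of the 36 windows, beside 13.6% of all promoters. A match is a run of letters in the window and was not tested as a binding site. Only the exact letters named were searched, before the start alone. Near matches such as TTTGGCGG in CDC6, which rose, and TTTCCCGG in POLE2, which fell, were therefore not counted. A gene without a match here may still hold an E2F site.

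**Figure D2:**
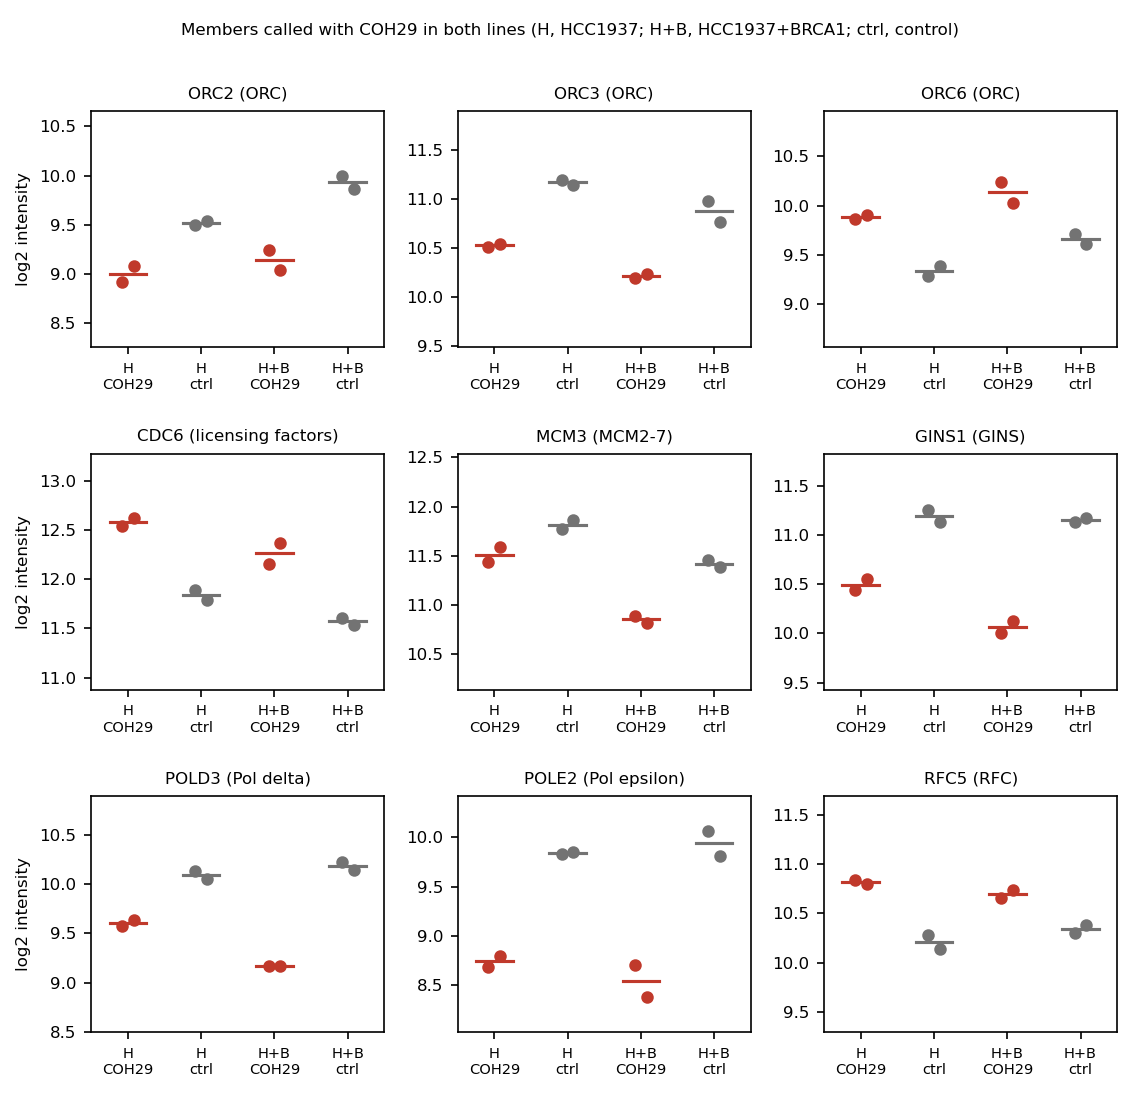
Log2 intensity (y axis) on each array of the 9 genes called with COH29 in both lines, with COH29 arrays in red, control arrays in grey and the bar at the mean of 2 arrays. Each y axis spans the same number of log2 units but starts at a different level. The COH29 and control arrays of a line do not overlap in any panel, and only ORC6, CDC6 and RFC5 have the COH29 arrays on top.

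The ORC subunits, which bind origins and recruit the rest, went separate ways. ORC2 read 8.91 and 9.08 in HCC1937 with COH29, against 9.50 and 9.53 in its control, and 9.24 and 9.04 in HCC1937+BRCA1 with COH29, against 10.00 and 9.86 in its control. Both drug groups lay below their controls without overlap, and ORC2 changed by -0.52 ± 0.10 in HCC1937 (log2, SE of the fit, 2 arrays per group; adjusted p = 0.00698) and -0.79 ± 0.10 in HCC1937+BRCA1 (adjusted p = 0.00047). The HCC1937 call of ORC2 ended without COH29 replicate 1 (0.0506) or control replicate 2 (0.0503).

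ORC3 read 10.51 and 10.54 in HCC1937 with COH29, against 11.19 and 11.14 in its control. In HCC1937+BRCA1 it read 10.19 and 10.24 with COH29, against 10.98 and 10.77 in the control. All 4 drug arrays lay below all 4 controls, with changes of -0.64 ± 0.09 (adjusted p = 0.00137) in HCC1937 and -0.66 ± 0.09 (adjusted p = 0.000687) in HCC1937+BRCA1. ORC6, the smallest and most loosely bound subunit, went the other way. It read 9.86 and 9.91 in HCC1937 with COH29, against 9.28 and 9.38 in its control, and 10.24 and 10.03 in HCC1937+BRCA1 with COH29, against 9.71 and 9.61 in its control. The groups of each line did not overlap, and ORC6 rose in HCC1937 by 0.55 ± 0.10 (adjusted p = 0.00373) and in HCC1937+BRCA1 by 0.47 ± 0.10 (adjusted p = 0.00527).

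ORC1, an ATP-binding subunit that is degraded after origins fire in human cells, read 8.62 and 8.71 in HCC1937 with COH29, against 8.44 and 8.23 in its control, a rise of 0.33 ± 0.10 (adjusted p = 0.0354). That call ended without either COH29 array (0.0715 and 0.124) or control replicate 2 (0.241). In HCC1937+BRCA1 ORC1 read 9.66 and 9.72 with COH29, against 9.75 and 9.80 in the control (adjusted p = 0.537). ORC4 and ORC5 were called in neither line, with ORC5 at -0.27 ± 0.09 in HCC1937+BRCA1 (adjusted p = 0.0542). The 6 ORC genes thus spanned -0.64 to 0.55 in HCC1937 and -0.79 to 0.47 in HCC1937+BRCA1.

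Of the licensing factors, CDC6, the ATPase that loads MCM with CDT1, had the largest rise among the 43 genes in both lines. It read 12.54 and 12.62 in HCC1937 with COH29, against 11.89 and 11.79 in its control. In HCC1937+BRCA1 it read 12.16 and 12.37 with COH29, against 11.61 and 11.54 in the control. Every drug array lay above every control array, and the changes were 0.74 ± 0.10 (adjusted p = 0.00085) in HCC1937 and 0.69 ± 0.10 (adjusted p = 0.000688) in HCC1937+BRCA1. CDT1 was at 0.06 in HCC1937 and -0.14 in HCC1937+BRCA1 and its inhibitor GMNN at 0.06 in HCC1937 and 0.01 in HCC1937+BRCA1, none of them called.

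The MCM2 to MCM7 subunits form the hexameric helicase core, and most of them were not called with COH29. MCM3 read 11.44 and 11.59 in HCC1937 with COH29, against 11.77 and 11.86 in its control. In HCC1937+BRCA1 it read 10.89 and 10.82 with COH29, against 11.46 and 11.39 in the control. The groups did not overlap in either line, and MCM3 fell by 0.30 ± 0.09 (adjusted p = 0.0401) in HCC1937 and by 0.57 ± 0.09 (adjusted p = 0.0013) in HCC1937+BRCA1. The call in HCC1937 ended without COH29 replicate 1 (0.199), control replicate 1 (0.0976), control replicate 2 (0.21) or any 1 array of the other line, and with arrays shifted to one median (0.0602). MCM2 was called in HCC1937+BRCA1, where it fell by 0.33 ± 0.08 (adjusted p = 0.0111), with -0.23 ± 0.08 in HCC1937 (adjusted p = 0.0722). Its call ended without COH29 replicate 1 (0.0517) or control replicate 1 (0.0584) of HCC1937+BRCA1. The other MCM genes lay between -0.13 (MCM7) and 0.06 (MCM4) in HCC1937 and between -0.21 (MCM7) and 0.03 (MCM4) in HCC1937+BRCA1.

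MCM10 and CDC45, which act when the loaded helicase is activated, were called in neither line. CDC45 read 10.66 and 10.76 in HCC1937 with COH29, against 10.78 and 10.77 in its control, and 10.62 and 10.73 in HCC1937+BRCA1 with COH29, against 10.80 and 10.95 in its control. The drug arrays lay just below the controls in both lines, and neither change was called (-0.07 ± 0.09 in HCC1937, adjusted p = 0.639, and -0.20 ± 0.09 in HCC1937+BRCA1, adjusted p = 0.122). GINS, the 4-subunit ring that joins CDC45 and MCM, held one of the largest falls.

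GINS1 read 10.44 and 10.55 in HCC1937 with COH29, against 11.25 and 11.13 in its control, and 10.01 and 10.13 in HCC1937+BRCA1 with COH29, against 11.13 and 11.18 in its control. All drug arrays lay below all control arrays, and the changes were -0.69 ± 0.09 in HCC1937 (adjusted p = 0.000813) and -1.09 ± 0.09 in HCC1937+BRCA1 (adjusted p = 4.04e-05). Of its partners in HCC1937, only GINS4 was called. GINS2 was at -0.12 ± 0.09 (adjusted p = 0.369), GINS3 at 0.00 ± 0.09 (adjusted p = 0.991), and GINS4 rose by 0.34 ± 0.10 (adjusted p = 0.0376), a call that ended without any 1 of the 4 HCC1937 arrays (0.0686 to 0.149). In HCC1937+BRCA1, GINS2 fell by 0.42 ± 0.09 (adjusted p = 0.00679) and GINS3 fell by 0.29 ± 0.09 (adjusted p = 0.0332), and GINS4 was at 0.09 ± 0.10 (adjusted p = 0.522). The GINS3 call ended without any 1 of the 4 HCC1937+BRCA1 arrays (0.0779 to 0.142), with arrays shifted to one median (0.0647) and after cyclic loess (0.118).

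The largest fall of the set was in a polymerase gene, in both lines. POLE2, the B subunit of the leading-strand polymerase epsilon, read 8.69 and 8.79 in HCC1937 with COH29, against 9.83 and 9.85 in its control, and 8.71 and 8.38 in HCC1937+BRCA1 with COH29, against 10.06 and 9.81 in its control. The drug arrays lay far below the controls in both lines, with changes of -1.10 ± 0.13 in HCC1937 (2.15-fold lower, adjusted p = 0.000424) and -1.40 ± 0.13 in HCC1937+BRCA1 (2.63-fold lower, adjusted p = 6.19e-05). POLE, the catalytic subunit of the same enzyme, was at 0.00 ± 0.08 in HCC1937 (adjusted p = 0.986) and -0.05 ± 0.08 in HCC1937+BRCA1 (adjusted p = 0.653).

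POLD3, an accessory subunit of the lagging-strand polymerase delta that also serves break-induced replication, read 9.58 and 9.64 in HCC1937 with COH29, against 10.13 and 10.05 in its control. In HCC1937+BRCA1 it read 9.17 and 9.17 with COH29, against 10.22 and 10.15 in the control. It fell in both lines without overlap, with log2 changes of -0.48 ± 0.08 in HCC1937 (adjusted p = 0.00316) and -1.01 ± 0.08 in HCC1937+BRCA1 (adjusted p = 3.55e-05). The catalytic POLD1 was at -0.18 ± 0.09 in HCC1937 (adjusted p = 0.203) and -0.28 ± 0.09 in HCC1937+BRCA1 (adjusted p = 0.0423), and the HCC1937+BRCA1 call ended without any 1 of the HCC1937+BRCA1 arrays (0.0911 to 0.151), with arrays shifted to one median (0.0792) and after cyclic loess (0.160). POLD2 was called in neither line (-0.16 in HCC1937 and -0.19 in HCC1937+BRCA1).

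Polymerase alpha and primase make the RNA-DNA primers. In HCC1937 none of the 4 genes was called, with changes of -0.31 to 0.05 and adjusted p of 0.0505 for POLA1 and 0.0529 for PRIM2. In HCC1937+BRCA1, 3 of the 4 fell, and the median of the 4 was -0.40, beside -0.25 in HCC1937. PRIM1, the catalytic primase, read 10.22 and 10.25 in HCC1937+BRCA1 with COH29, against 10.76 and 10.78 in its control. In HCC1937 it read 10.38 and 10.62 with COH29, against 10.75 and 10.68 in the control. The drug arrays were lower in both lines, narrowly so in HCC1937, with -0.53 ± 0.10 in HCC1937+BRCA1 (adjusted p = 0.00272) and -0.21 ± 0.10 in HCC1937 (adjusted p = 0.157). PRIM2 fell by 0.49 ± 0.10 in HCC1937+BRCA1 (adjusted p = 0.00489). POLA1, the catalytic subunit, fell by 0.31 ± 0.09 there (adjusted p = 0.0285), a call that ended without COH29 replicate 2 (0.151) or control replicate 1 (0.161), with arrays shifted to one median (0.0709) and after cyclic loess (0.122).

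PCNA, the sliding clamp, was not called. It read 11.99 and 11.95 in HCC1937 with COH29, against 11.79 and 11.81 in its control, and 12.02 and 11.91 in HCC1937+BRCA1 with COH29, against 11.92 and 11.81 in its control. The drug arrays were higher without overlap in HCC1937 and overlapped the controls in HCC1937+BRCA1, with changes of 0.17 ± 0.09 (adjusted p = 0.198) in HCC1937 and 0.10 ± 0.09 (adjusted p = 0.411) in HCC1937+BRCA1. Its loader divided between members. RFC5 read 10.84 and 10.80 in HCC1937 with COH29, against 10.28 and 10.14 in its control, and 10.66 and 10.74 in HCC1937+BRCA1 with COH29, against 10.30 and 10.39 in its control. It rose without overlap in both lines, by 0.61 ± 0.09 in HCC1937 (adjusted p = 0.00134) and 0.36 ± 0.09 in HCC1937+BRCA1 (adjusted p = 0.013), and the call in HCC1937+BRCA1 ended without COH29 replicate 2 (0.0739) or control replicate 1 (0.0856) among the arrays of HCC1937+BRCA1.

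RFC3 and RFC4, small subunits of the same loader, fell in HCC1937+BRCA1, RFC3 by 0.52 ± 0.08 (adjusted p = 0.00106) and RFC4 by 0.33 ± 0.08 (adjusted p = 0.0134). In HCC1937 RFC3 was at -0.12 ± 0.08 (adjusted p = 0.311) and RFC4 at -0.03 ± 0.08 (adjusted p = 0.797). The RFC4 call ended without COH29 replicate 1 (0.0643) or control replicate 2 (0.0772) of HCC1937+BRCA1. RFC1 and RFC2 were called in neither line. Of RPA, which coats single-stranded DNA, RPA3 read 9.48 and 9.51 in HCC1937 with COH29, against 9.21 and 9.13 in its control. It rose by 0.33 ± 0.09 (adjusted p = 0.0347), and the call ended without any 1 of the HCC1937 arrays (0.0949 to 0.183). In HCC1937+BRCA1 RPA3 read 9.13 and 9.09 with COH29, against 9.00 and 8.79 in the control, and was not called (0.21 ± 0.09, adjusted p = 0.109). With arrays shifted to one median (adjusted p = 0.0437) or cyclic loess (0.0247) it was. RPA1 and RPA2 were called in neither line.

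CHAF1A and CHAF1B, the large subunits of CAF-1, which places histones on newly copied DNA, were called in neither line with COH29. CHAF1B was at 0.26 ± 0.12 in HCC1937 (adjusted p = 0.161) and -0.05 ± 0.12 in HCC1937+BRCA1 (adjusted p = 0.787). DSCC1, part of the alternative clamp loader that acts in sister chromatid cohesion, was at 0.17 ± 0.09 in HCC1937 (adjusted p = 0.213) and 0.00 ± 0.09 in HCC1937+BRCA1 (adjusted p = 0.993). WDHD1 (AND-1), which ties polymerase alpha to the helicase, read 9.90 and 9.82 in HCC1937 with COH29, against 10.19 and 10.19 in its control. In HCC1937+BRCA1 it read 9.99 and 9.73 with COH29, against 10.48 and 10.29 in the control. The drug arrays were lower in both lines, and the change was called in HCC1937+BRCA1 (-0.52 ± 0.11, adjusted p = 0.00544) and not in HCC1937 (-0.33 ± 0.11, adjusted p = 0.0587).

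**Figure D3:**
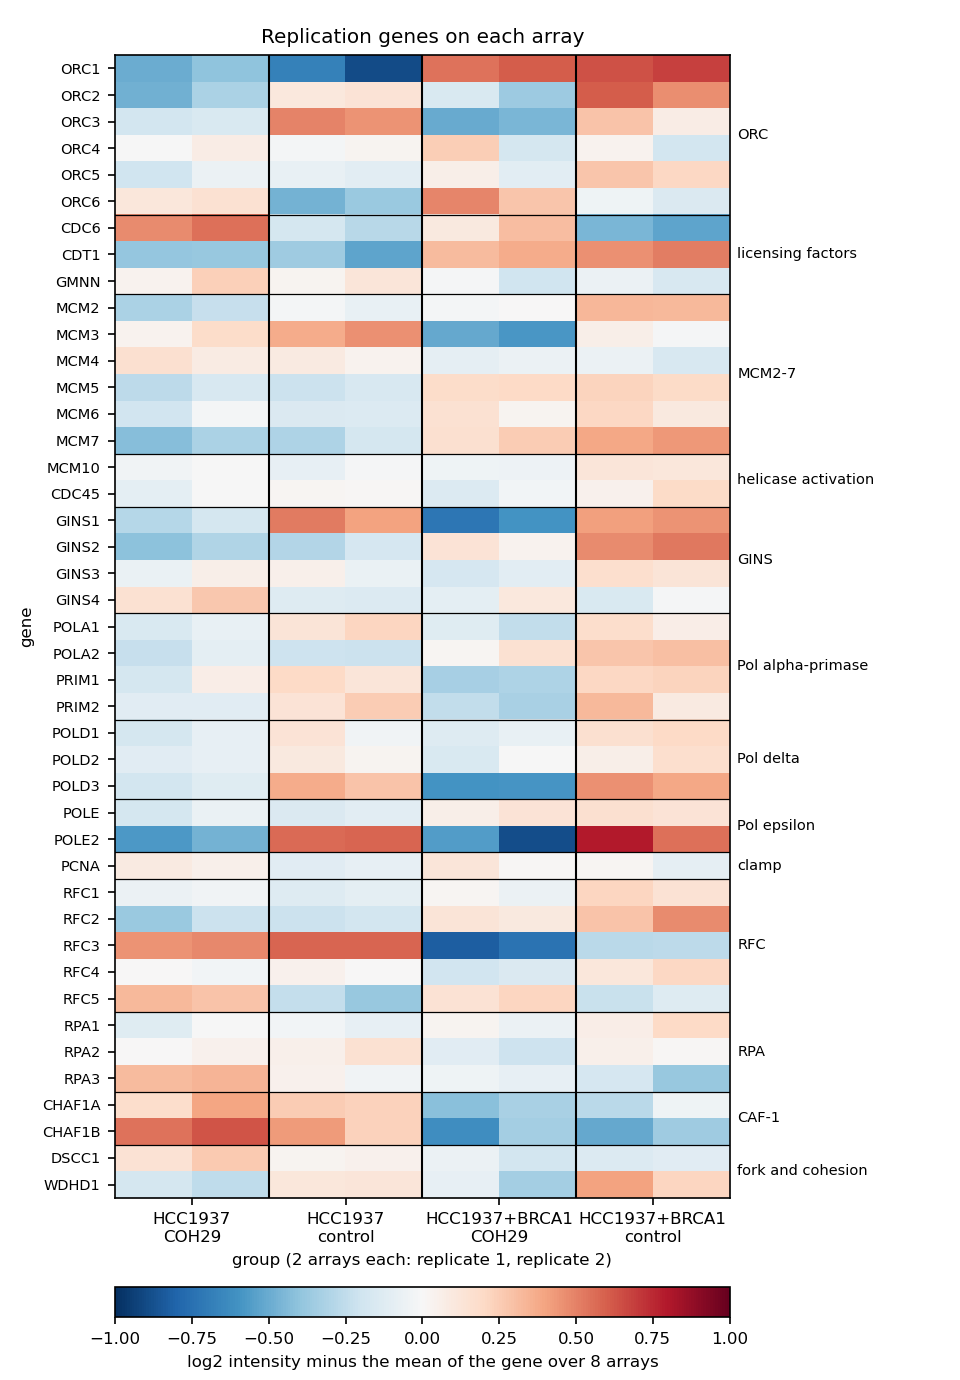
Log2 intensity of each of the 43 genes (rows, grouped by complex) on each of the 8 arrays (columns, by group), shown as the difference from the mean of that gene over the 8 arrays, red above it and blue below it. CDC6 and RFC5 are highest on COH29 arrays and POLE2, GINS1 and POLD3 highest on control arrays, and ORC1, CDT1, RFC3 and CHAF1B separate the lines.

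Whether COH29 acted differently in the lines was tested as the effect in HCC1937 minus the effect in HCC1937+BRCA1. Of the 43 members 0 were called in that test by limma, beside 0.956% of all genes (0.413% higher and 0.543% lower). The smallest adjusted p was that of POLD3, with a difference of 0.53 (95% interval 0.27 to 0.80, adjusted p = 0.0804). RFC3 differed by 0.39 (0.14 to 0.65, adjusted p = 0.167), GINS1 by 0.40 (0.11 to 0.69, adjusted p = 0.223) and ORC1 by 0.41 (0.11 to 0.72, adjusted p = 0.233). With genes below the 30th percentile of level left out POLD3 was called (adjusted p = 0.0347), and 4 members were called with a trended and robust variance (POLD3, RFC3, GINS1 and RFC4).

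The differences of the members leaned to 1 side. They were positive for 41 of the 43, from -0.08 (ORC4) to 0.53 (POLD3) with a median of 0.18, a positive value being a more positive COH29 effect in HCC1937. Over all genes 55.1% were positive, with a median of 0.02. Among the 7653 genes at or above the level of the lowest member, 65.8% were positive, with a median of 0.07. Other scalings lowered the values of the members and of these 7653 genes alike. With arrays shifted to one median the members had a median of 0.15 and 37 positive (86.0%). The 7653 genes then had a median of 0.04 and 58.0% positive. After cyclic loess the members had 0.10 and 34 positive (79.1%), and the 7653 genes 0.002 and 50.4%. Over all genes the medians were -0.01 and 0.00. The members share the same 8 arrays, so the 43 signs are not separate measurements.

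**Figure D4:**
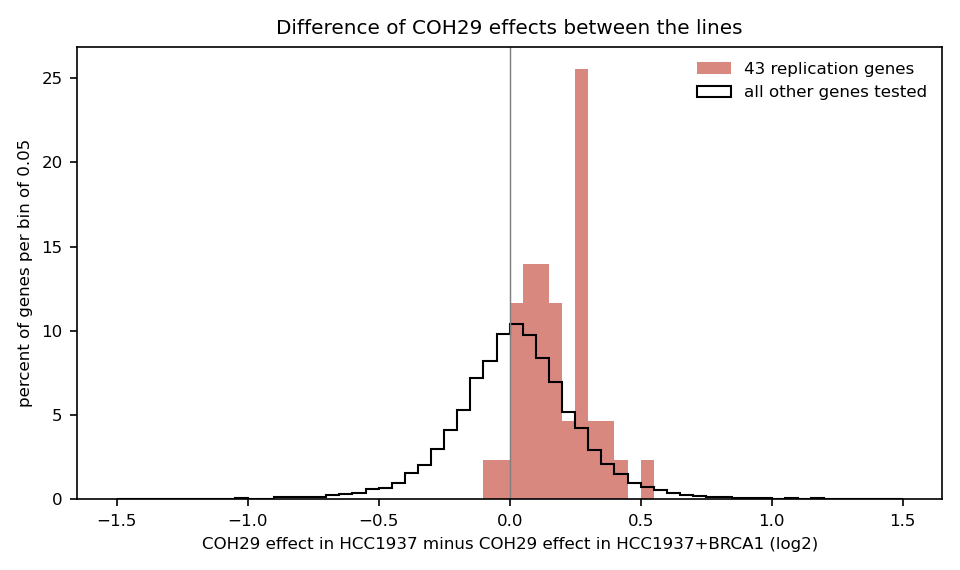
Share of genes (y axis, percent per bin of 0.05) by the COH29 effect in HCC1937 minus that in HCC1937+BRCA1 on the log2 scale (x axis), for the 43 replication genes (red) and all other genes tested (black outline). 19 other genes outside -1.5 to 1.5 are not drawn. The members lie between -0.08 and 0.53 with a median of 0.18, and the outline is centred near 0.

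The lines themselves differed in many of these genes. Without COH29, HCC1937 had 6 members higher than HCC1937+BRCA1 (ORC3, MCM3, RFC3, RPA3, CHAF1A and CHAF1B) and 14 lower (ORC1, ORC2, ORC5, ORC6, CDT1, MCM2, MCM5, MCM6, MCM7, GINS2, POLA2, POLE, RFC1 and RFC2). These are 46.5% of the members, beside 31.2% of all genes, of which 14.8% were higher and 16.4% lower. With COH29, 10 were higher (ORC3, CDC6, MCM3, GINS1, POLD3, RFC3, RPA3, CHAF1A, CHAF1B and DSCC1) and 7 lower (ORC1, CDT1, MCM2, MCM5, MCM7, GINS2 and RFC2), which are 39.5%, beside 31.6% of all genes, 17.4% higher and 14.2% lower. These comparisons share no array, but the fit gives them a common estimate of each gene's spread. Called in both were 6 members higher (14%, beside 11.5% of all genes) and 7 lower (16.3%, beside 11%), and 0 in opposite directions (0.195% of all genes). All these shares of all genes count low-level genes too. Leaving those out as before kept 12892 genes. Without COH29, 2740 of them and 7 members were then higher, and 2989 and 14 lower. With COH29 it was 3328 genes and 11 members higher, and 2635 and 9 lower. Members were then called at a rate nearer to that of the kept genes, in both line comparisons. As deposited, the median difference of the members was 0.03 with COH29 and -0.10 without it. For the 7653 genes at or above the level of the lowest member it was 0.05 and -0.01. The members' value with COH29 changed sign with the scaling, to -0.0011 with arrays shifted to one median and -0.03 after cyclic loess, while the value without COH29 was -0.10 and -0.08. Under the same scalings the 7653 genes had 0.02 and -0.004 with COH29, and -0.01 and 0.003 without it. BRCA1 and any other difference between the lines cannot be told apart.

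The largest of these differences was in ORC1, which read 8.44 and 8.23 in HCC1937 control, against 9.75 and 9.80 in HCC1937+BRCA1 control. With COH29 it read 8.62 and 8.71 in HCC1937, against 9.66 and 9.72 in HCC1937+BRCA1. The lines did not come near each other, and ORC1 was lower in HCC1937, with differences of -1.44 ± 0.10 in controls (adjusted p = 6.96e-06) and -1.03 ± 0.10 with COH29 (adjusted p = 5.76e-05). CDT1 read 9.26 and 9.09 in HCC1937 control, against 10.07 and 10.13 in HCC1937+BRCA1 control, a difference of -0.93 ± 0.09 (adjusted p = 6.17e-05), and -0.72 ± 0.09 with COH29 (adjusted p = 0.000274). GINS2 read 11.56 and 11.69 in HCC1937 control, against 12.32 and 12.38 in HCC1937+BRCA1 control (-0.73 ± 0.09, adjusted p = 0.000302). MCM7 read 11.08 and 11.21 in HCC1937 control, against 11.77 and 11.81 in HCC1937+BRCA1 control (-0.65 ± 0.09, adjusted p = 0.000543). For each of these genes the control arrays of the lines were apart.

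CHAF1B and RFC3 stood on the other side. CHAF1B read 10.40 and 10.20 in HCC1937 control, against 9.46 and 9.62 in HCC1937+BRCA1 control (0.76 ± 0.12, adjusted p = 0.00115), and 10.52 and 10.60 with COH29 in HCC1937, against 9.35 and 9.63 in HCC1937+BRCA1 (1.06 ± 0.12, adjusted p = 0.000164). RFC3 read 12.35 and 12.35 in HCC1937 control, against 11.50 and 11.50 in HCC1937+BRCA1 control. With COH29 it read 12.21 and 12.24 in HCC1937, against 10.94 and 11.02 in HCC1937+BRCA1. Both genes were higher in HCC1937 on every array, RFC3 by 0.85 ± 0.08 (adjusted p = 5.48e-05) and, with COH29, by 1.24 ± 0.08 (adjusted p = 6.46e-06). RFC3 lies on chromosome 13, in a stretch from POMP to VWA8 that was chosen with earlier results of these data known. The counts in it are therefore a description and no separate support. Of the 58 genes measured there, RFC3 included, 37 were called higher and 3 lower in HCC1937 control, with a median difference of 0.61. Over all genes 14.8% were higher and 16.4% lower. Of the 58 genes, 22 had a larger difference than RFC3. With COH29, 34 were higher and 1 lower, beside 17.4% and 14.2% of all genes. The median was then 0.55, and 8 exceeded RFC3. The part of these neighbours' shared difference in that of RFC3 was not tested.

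Of the 20 calls between the control groups, 9 (ORC1, CDT1, MCM5, MCM7, GINS2, POLA2, RFC2, RFC3 and CHAF1B) held without any 1 array. The other 11 ended without HCC1937 control replicate 2 (adjusted p 0.0548 to 0.147), 9 of them without HCC1937 control replicate 1 (0.0793 to 0.229), 7 without HCC1937+BRCA1 control replicate 1 (0.0954 to 0.215) and 8 without HCC1937+BRCA1 control replicate 2 (0.0511 to 0.285). The members higher then numbered 3, 2, 5 and 3 without HCC1937 control replicates 1 and 2 and HCC1937+BRCA1 control replicates 1 and 2, in that order, and the members lower 8, 7, 8 and 9. ORC3 and RPA3 also ended without any 1 COH29 array (0.0504 to 0.0658). Of the 17 calls with COH29, 6 (ORC3, CDC6, MCM2, RFC2, RPA3 and DSCC1) ended without at least 1 array, up to 5 at once without HCC1937 COH29 replicate 2 (0.0502 to 0.146), where 6 members were higher.

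**Figure D5:**
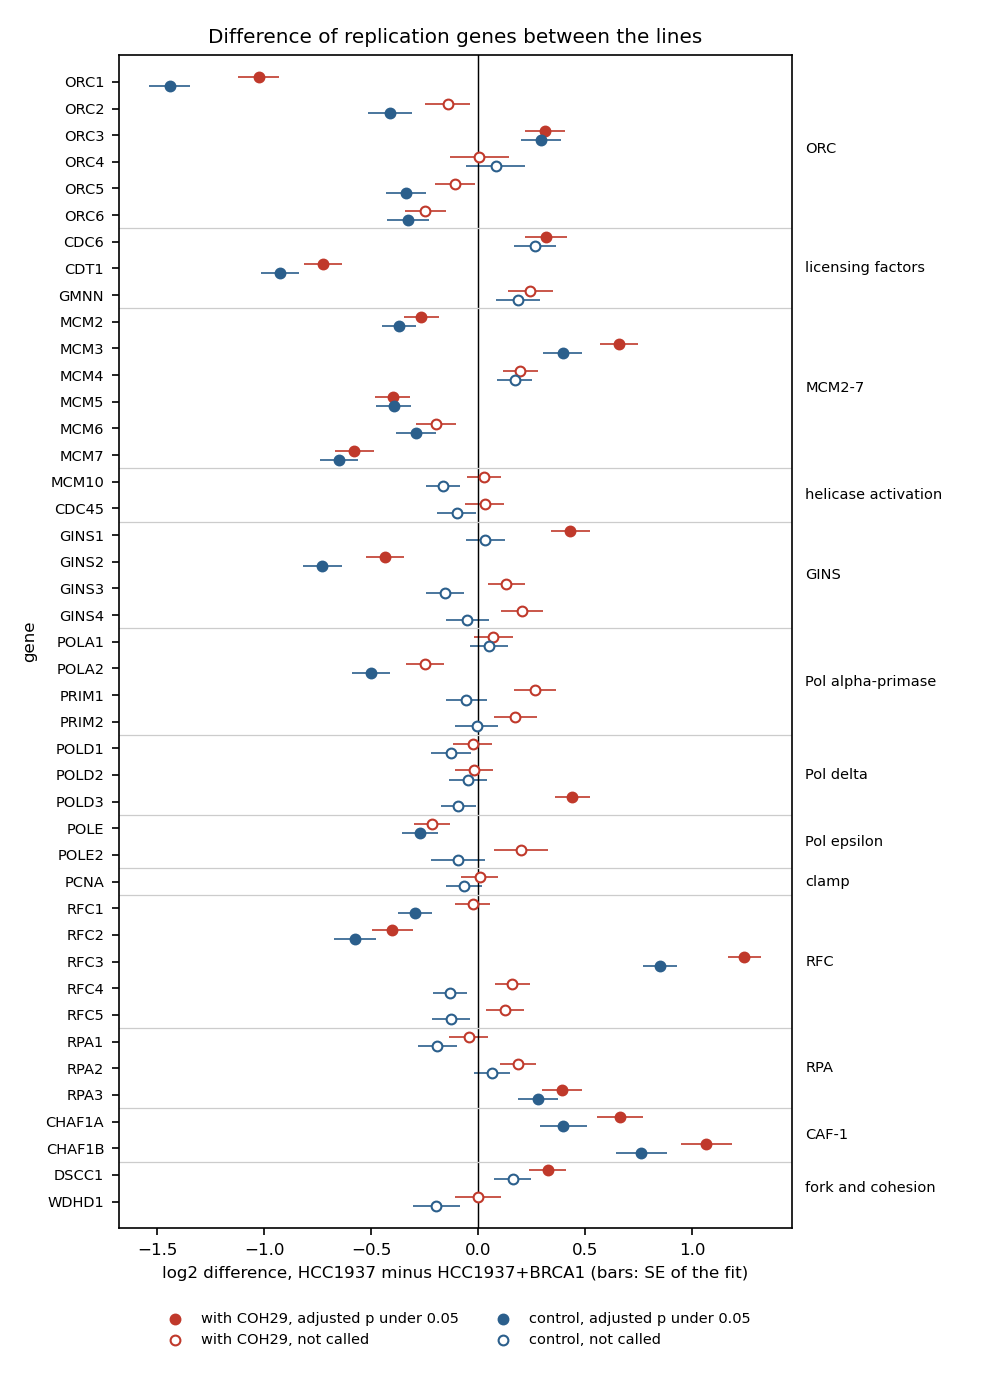
Difference between the lines, HCC1937 minus HCC1937+BRCA1 on the log2 scale (x axis, bars are the SE of the fit), for each of the 43 genes with COH29 (red) and in controls (blue), with genes grouped by complex. Filled points passed an adjusted p of 0.05. ORC1 lies farthest left, at -1.03 with COH29 and -1.44 in controls, and RFC3 farthest right, at 1.24 and 0.85.

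Other replication genes were taken from a list of 40, all measured. In HCC1937, 5 of the 40 rose and 9 fell with COH29 (median -0.04), beside 10.2% higher and 12.5% lower of all genes. In HCC1937+BRCA1, 5 of the 40 rose and 16 fell (median -0.17), beside 13.6% higher and 20.1% lower of all genes. Here too the shares of all genes count low-level genes. CDC7, the kinase that activates the loaded MCM helicase, read 7.04 and 7.67 in HCC1937 with COH29, against 8.79 and 8.79 in its control, and fell by 1.43 ± 0.17 (adjusted p = 0.000513). In HCC1937+BRCA1 CDC7 read 7.35 and 7.34 with COH29, against 9.28 and 9.14 in its control, and fell by 1.86 ± 0.17 (adjusted p = 6.7e-05). TOPBP1, which brings CDC45 to origins, fell by 0.78 in HCC1937 and by 0.87 in HCC1937+BRCA1. TOP2A, the topoisomerase that untangles sister chromatids, fell by 0.74 in HCC1937 and by 1.12 in HCC1937+BRCA1. Of the subunits of ribonuclease H2, which removes ribonucleotides from DNA, RNASEH2C rose by 0.73 in HCC1937 and 0.46 in HCC1937+BRCA1, and RNASEH2B fell by 0.43 in HCC1937 and by 0.62 in HCC1937+BRCA1. Each of these 5 genes was called in both lines. The RNASEH2B call in HCC1937 ended without its control replicate 2 (0.0637), and the RNASEH2C call in HCC1937+BRCA1 without its COH29 replicate 2 (0.0503) or control replicate 1 (0.0516). The genes higher in HCC1937 numbered 3 without its COH29 replicate 2 and 2 without its control replicate 1, and the genes lower 5 without its control replicate 2. In HCC1937+BRCA1 the genes higher numbered 1, 2, 2 and 3 without COH29 replicates 1 and 2 and control replicates 1 and 2, in that order.

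Beside the replication genes, the cell cycle inhibitor CDKN1A (p21) read 10.52 and 10.54 in HCC1937 with COH29, against 9.27 and 8.97 in its control, and 10.81 and 11.08 in HCC1937+BRCA1 with COH29, against 9.26 and 9.39 in its control. The drug arrays lay above all controls, with rises of 1.41 ± 0.13 in HCC1937 (adjusted p = 0.00014) and 1.62 ± 0.13 in HCC1937+BRCA1 (adjusted p = 2.9e-05). The proliferation marker MKI67 changed by -0.78 ± 0.10 in HCC1937 (adjusted p = 0.000862) and -1.03 ± 0.10 in HCC1937+BRCA1 (adjusted p = 0.000105), a fall in both. E2F1, a regulator of many genes of this set, was not called (0.04 ± 0.09 in HCC1937, adjusted p = 0.78, and -0.03 ± 0.09 in HCC1937+BRCA1, adjusted p = 0.845). Their part in the changes of the replication genes was not tested.

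Gene length was compared with the change, as a description over points that share the same arrays. Across the 43 members the Spearman correlation of log2 change with the span of the gene was -0.32 in HCC1937 and -0.29 in HCC1937+BRCA1, beside -0.09 and -0.16 over 18392 genes. With the percentile of mean level it was -0.03 in each line for the members, beside -0.18 in HCC1937 and -0.24 in HCC1937+BRCA1 over the 18392 genes. The members called in at least 1 line lie on 15 chromosomes.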

How the data were processed

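TRIzol RNA was labelled with biotin in one cycle, per the labels' protocols, and hybridised to 2 arrays per group. The values are the log2 intensities that the authors deposited for 33297 probe sets on each of 8 arrays. The submitters' processing notes name RMA and Partek (versions not stated). RMA makes the distributions of arrays alike, and once sorted, the deposited values differed between arrays by no more than 0.297, so a shift shared by all genes would not be seen. Genome build and scan batches are not given in the sources used here. Precision is limited by the number of arrays: the median SE of a log2 change was 0.103. No detection call was used.

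The platform annotation gave 1 gene for 19460 probe sets, several for 1754 and none for 12083, and only those with 1 gene were kept. Where a gene had several probe sets, the one with the highest mean over the arrays stood for it, which left 18417 genes. The 4 group means were estimated jointly from the 8 arrays in limma 3.58.1 under R 4.3.3, using lmFit, contrasts and eBayes on 4 residual degrees of freedom, with Benjamini-Hochberg adjustment over all genes in each of 5 comparisons. The fit was tested on simulated data. Tables were made in Python 3.11.15 with pandas 2.3.3 and scipy 1.17.1, and figures with matplotlib 3.10.9.

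The members, the other lists, the motifs and the tests were chosen with earlier results of these data known. Named were the member with the smallest COH29 p of each complex, the members called in both lines, the 6 members with the smallest p between control groups, the 4 other replication genes with the smallest p per line, and CDKN1A, MKI67 and E2F1. Further members are named where counts list them. Alternatives were leaving out each array, using the 4 arrays of a comparison alone, no moderation, a trended and robust eBayes, a block for replicate number, averaging over probe sets, a filter on low levels, cyclic loess, and arrays shifted to one median. Nothing in the labels says that equal replicate numbers share a culture or day, so the numbers were not taken as pairs. Deviations from the group means of arrays with the same replicate number correlated with r of 0.04 between the HCC1937 groups and 0.26 between the HCC1937+BRCA1 groups. Whether equal numbers in HCC1937+BRCA1 shared a culture or day was not tested.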

Additional observations from a re-analysis of the deposited data

How the results depend on the processing

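Of 68 member calls over the 5 comparisons, 40 held without any 1 array and under the 9 other settings, and 0 changed direction. Leaving out 1 array ended 106 of 544 call and array pairs, and the other settings ended 43 of 612. Of 147 uncalled member values, 48 changed sign under some setting, and 0 of these were then called. In HCC1937 the members higher with COH29 numbered 3 without moderation, and the members lower 10 without genes below the 30th percentile or with trend and robust, where MCM2, POLA1, PRIM2 and WDHD1 joined. For the difference of effects, the filter on low levels gave 1 member higher and 351 genes, trend and robust 4 members and 566 genes, no moderation 3 genes and the replicate block 106 genes, against 0 members and 176 genes. Between the control groups 3 members were higher without moderation. With COH29, 11 members were lower in HCC1937 than in HCC1937+BRCA1 after cyclic loess. The causes of these moves were not tested. Of the other replication genes, 8 were higher with COH29 in HCC1937 with trend and robust, and 8 in HCC1937+BRCA1 with arrays shifted to one median or cyclic loess, against 5 in each line. With arrays shifted to one median, 54.4% of all calls with COH29 in HCC1937+BRCA1 were higher, against 40.3% of the calls as deposited.

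Without 1 array, COH29 in HCC1937 gave 3 to 6 members higher, 4 to 7 lower and 2336 to 4012 genes called. In HCC1937+BRCA1 the ranges were 2 to 3 members higher, 12 to 16 lower and 4171 to 6400 genes. The difference of effects called 0 members and 41 to 67 genes. Between control groups 2 to 5 members were higher and 7 to 14 lower, and with COH29 6 to 10 were higher and 5 to 7 lower. In these fits a lone array is assumed to vary like the other groups.

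With the replicate number as a block, COH29 in HCC1937 gave 5 members higher and 6 lower: the calls of ORC1 (adjusted p = 0.0565) and MCM3 (0.0623) ended, and WDHD1 was called lower (0.0475). COH29 in HCC1937+BRCA1 gave 3 and 14, without GINS3 (0.0529) and POLD1 (0.0646). Between control groups it gave 4 and 13, without ORC3, MCM6 and RPA3 (0.0572 to 0.0675), between COH29 groups 9 and 6, without CDC6 and MCM2 (0.0528 to 0.0548), and for the difference of effects 0. The same replicate numbers correlated by -0.09 between the COH29 groups and by -0.10 between the control groups. A block with the numbers crossed between the lines, added after seeing the data, gave 6 and 9, 3 and 17, 6 and 14, and 11 and 8 members in the same order of comparisons.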
